A study of Drosophila melanogaster with 4 samples.

Results

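Glutathione S-transferases (GSTs) are enzymes that join the tripeptide glutathione to reactive molecules, which makes those molecules soluble and ready for export. In insects the delta (D) and epsilon (E) classes form large gene clusters known for detoxifying insecticides and products of lipid oxidation. The omega (O), sigma (S), theta (T) and zeta (Z) classes are smaller and have relatives in mammals. Many GST genes respond to oxidative stress through the transcription factor CncC (gene cnc), the fly relative of Nrf2, which the protein Keap1 holds back.

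The GST genes described here are those whose probe set carries 1 gene symbol of the form Gst, class letter and number in the array's annotation. The rule found 36 probe sets for 34 genes, out of 11982 genes with a single-symbol probe set. They comprise 11 genes of class D, 13 of class E, 3 of class O, 1 of class S, 4 of class T and 2 of class Z. Only GstE9 and GstO2 had a second probe set, and the brighter one was used. GstE8 is not analysed here. By the order of genes in RefSeq Release 6, 16 of the 34 genes lie on chromosome arm 2R, 13 on 3R, 3 on 3L and 2 on X.

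Expression was measured in wing imaginal discs, the larval tissue that gives rise to the wing, from third-instar larvae of yw flies kept at 25 degrees. All 4 genotypes carried the driver en-Gal4, which is active in posterior cells, so each array mixes posterior cells with anterior cells outside the driver's domain. The genotypes were en-Gal4 with both UAS-PI3K ov and UAS-Hdac3 RNAi (both transgenes), en-Gal4 with UAS-PI3K ov (PI3K), en-Gal4 with UAS-Hdac3 RNAi (Hdac3 RNAi) and en-Gal4 alone (control). Each genotype had 1 array, and how many larvae or discs went into it is not stated in the labels. No difference below could therefore be held against a spread between replicates, and no test was run.

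Values are scaled intensities on a linear scale, and differences are log2 ratios between 2 arrays. A floor of 26.9, the 90th percentile of 125 odorant and gustatory receptor probe sets, marks the level below which a probe set is not read as measured. Of all named genes, 62.9% to 64.2% lay above it on an array, while 26 or 27 of the 34 GST genes did. A gene was counted as apart where 2 arrays differed by at least 1.5-fold, and also at 2-fold. Where a gene had several probe sets, their log2 ratios spread with an SD of 0.15 to 0.24, depending on the comparison. That SD compares probe sets on the same 2 arrays, and does not measure the spread between repeated arrays or between animals.

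Of 10 wing disc markers listed, the 8 on the array, among them vg, nub, ap and Dll, were above the floor on all arrays. Their summed intensity was 10592 with both transgenes, 7706 with PI3K, 11115 with Hdac3 RNAi and 10081 in control, with ci furthest from control on the PI3K array (log2 ratio -0.73). Markers of other larval tissues were present as well and differed between arrays far more. The 6 fat body genes on the array summed to 1981 with both transgenes, 13803 with PI3K, 7777 with Hdac3 RNAi and 4175 in control. The 6 salivary glue genes summed to 449.95 with both transgenes, 4123 with PI3K, 636 with Hdac3 RNAi and 625 in control. The 17 digestive genes summed to 613 with both transgenes, 4554 with PI3K, 1638 with Hdac3 RNAi and 1905 in control. In whole-tissue RNA, more cells of a type and more RNA per cell cannot be told apart.

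Most of the GST family was measured in the disc, with differences between genotypes that were mostly under 1.5-fold. Of the 34 genes, 26 were above the floor on all 4 arrays and 7 were below it on every array. The 7 were GstD4, GstD5, GstD6, GstD11, GstE2, GstE4 and GstE14. GstE14, also called noppera-bo, is an enzyme of steroid hormone production in the prothoracic gland. GstD7 had 25.5 with both transgenes, 26.9 with PI3K, 21.9 with Hdac3 RNAi and 24.7 in control, so it only touched the floor on the PI3K array. Among the 26 measured genes the brightest array exceeded the dimmest by a median of 1.27-fold, 19 stayed under 1.5-fold and 25 under 2-fold. Over all 7301 genes measured on every array that median was 1.19-fold, with 88.9% under 1.5-fold and 97.5% under 2-fold, so a smaller share of the GST genes stayed under 1.5-fold. GstE3 was the exception at 2-fold.

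**Figure D1:**
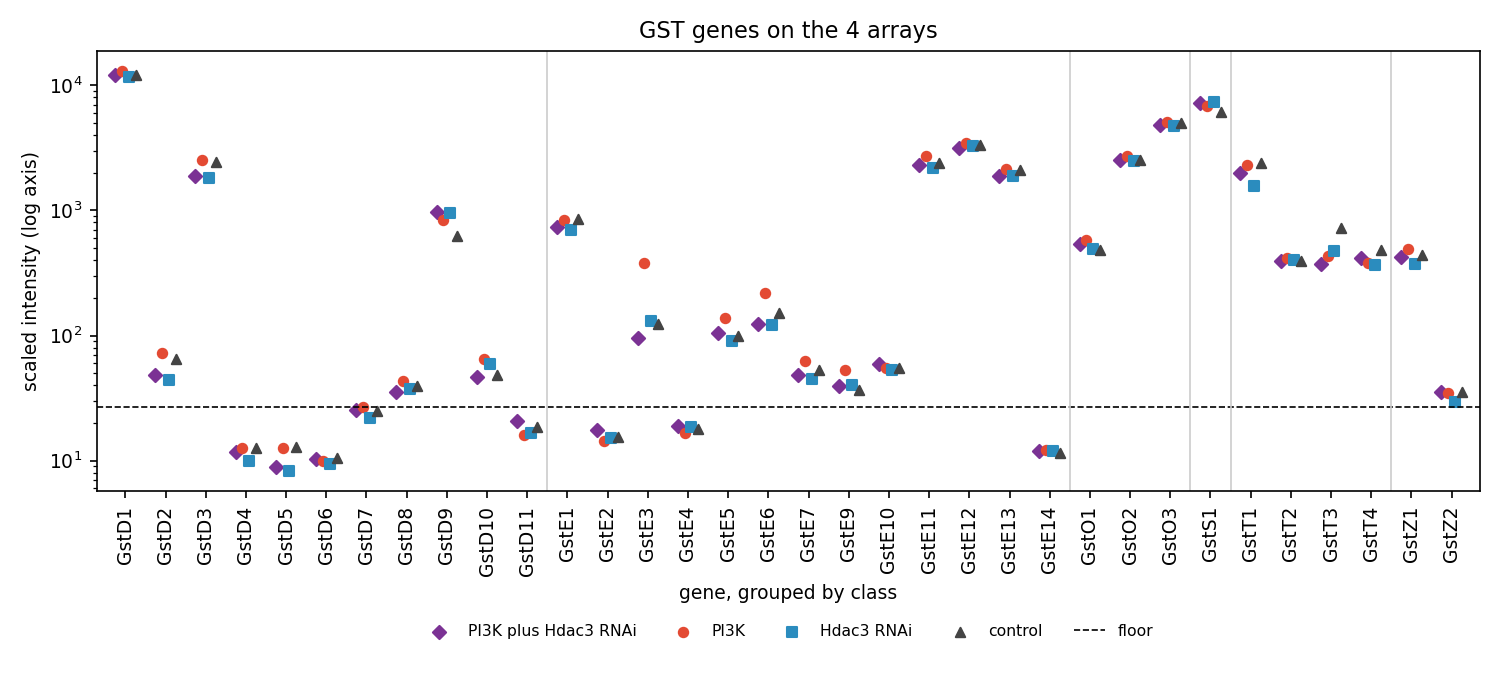
Scaled intensity of each of the 34 GST genes on the 4 arrays, on a log axis, grouped by class; each marker is 1 array and the dashed line is the floor of 26.9. Levels of different genes come from different probe sets and are not comparable with each other; GstE3 shows the widest spread between arrays, with both transgenes at 95.3 and PI3K at 383.

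GstE3, an epsilon-class enzyme gene, had the largest differences of the family. Its intensity was 95.3 with both transgenes, 383 with PI3K, 130 with Hdac3 RNAi and 123 in control. The PI3K array alone was high, and the other 3 lay close to each other. The log2 ratio was 1.64 for PI3K against control, -2.01 for both transgenes against PI3K and -0.45 for both transgenes against Hdac3 RNAi. Hdac3 RNAi alone differed from control by 0.08. The departure from additivity, taken as the Hdac3 RNAi log2 ratio on the PI3K background less the one on the control background, was -2.09.

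The order of the 4 arrays for GstE3 was that of the summed fat body markers and of the summed salivary glue genes: PI3K highest, then Hdac3 RNAi, then control, then both transgenes. Between Hdac3 RNAi and control this order rested on small differences for GstE3 (130 against 123) and the glue sum (636 against 625). The fat body sum differed more there, at 7777 against 4175. Of the 6 fat body genes 4 had this order, and Obp99a and apolpp did not. Of the salivary and gut genes above the floor on all arrays, 3 of 4 and 3 of 8 had it. The order was read from GstE3 itself, so GstE3 has it by definition. GstD10 was the only other of the 26 GST genes with it. Of the 7301 genes above the floor on all arrays 2.38% had it. GstD10 had 47.0 with both transgenes, 64.5 with PI3K, 59.0 with Hdac3 RNAi and 48.7 in control, a much narrower range. In the fat body list, 5 of 6 genes were at least 1.5-fold higher with PI3K than in control, where 1.78% of all measured genes were. They were led by Obp99b with 5593 in PI3K against 1189 in control. With both transgenes against PI3K, 5 of 6 fat body genes were at least 1.5-fold lower, where 1.97% of all measured genes were. They were led by Fbp2 with 128 with both transgenes against 3188 with PI3K. The salivary gene Sgs5, at 1441 in PI3K and 171 in control, and the gut protease gene Jon65Aiv, at 1792 in PI3K and 566 in control, were highest on the same array. In the gut list 5 of 9 genes measured in PI3K and control were at least 1.5-fold higher with PI3K and none lower, with ratios from -0.40 to 1.66. Over all genes 1.78% were higher and 3.12% lower. The part of these tissues in the GstE3 signal was not tested.

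**Figure D2:**
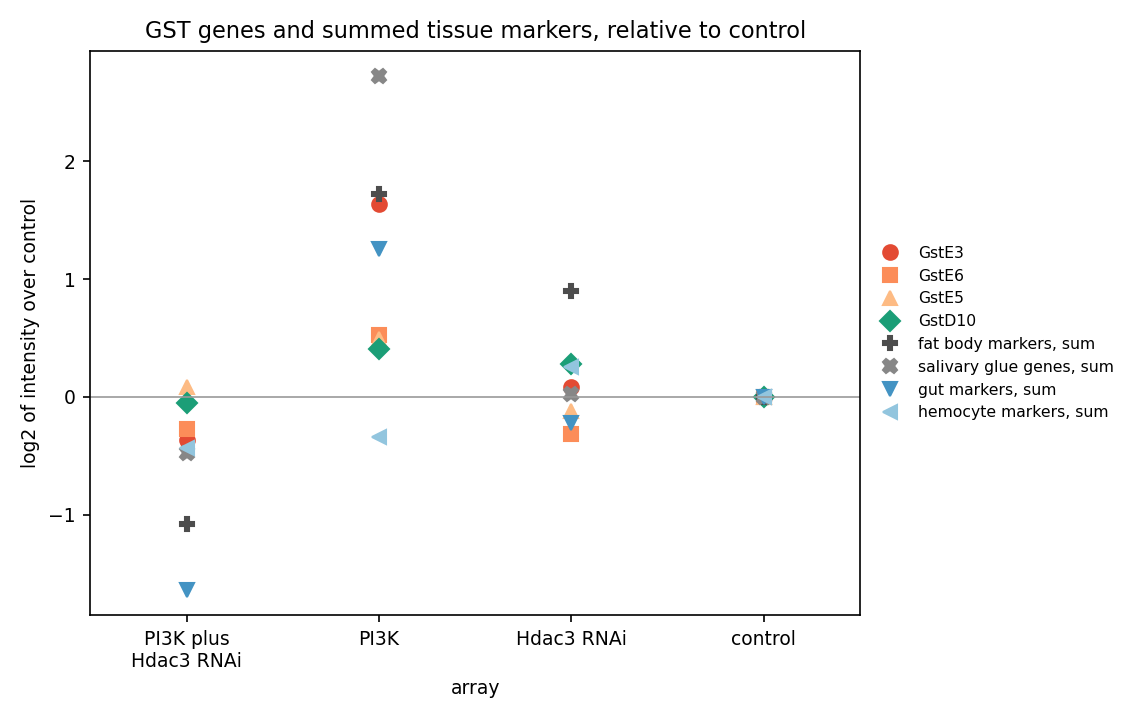
Log2 of the intensity of GstE3, GstE6, GstE5 and GstD10, and of the summed intensity of 4 tissue marker lists, each relative to its own control array; 1 array per genotype. On the PI3K array GstE3 (1.64) lies beside the fat body sum and below the salivary glue sum, while GstE6, GstE5 and GstD10 lie between 0.40 and 0.53.

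The neighbours of GstE3 were read separately because the epsilon genes sit side by side on 2R in the RefSeq order GstE10, GstE1 to GstE7, GstE8 and GstE9. The nearest protein-coding genes on either side of GstE3, GstE2 and GstE4, were below the floor on all arrays. Further along the row, GstE6 had 125 with both transgenes, 217 with PI3K, 121 with Hdac3 RNAi and 151 in control. GstE5 had 105 with both transgenes, 139 with PI3K, 91.0 with Hdac3 RNAi and 98.8 in control. Both were highest with PI3K, by log2 ratios of 0.53 and 0.49 against control.

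GstE9 had 39.4 with both transgenes, 52.8 with PI3K, 40.2 with Hdac3 RNAi and 36.6 in control, and its second probe set was below the floor on all arrays. GstE7 had 48.0 with both transgenes, 62.9 with PI3K, 44.9 with Hdac3 RNAi and 52.9 in control. The same array was highest for both genes, at levels not far above the floor. GstE1 and GstE10 departed from this pattern. GstE1, whose enzyme conjugates a toxic lipid aldehyde, had 740.3 with both transgenes, 831 with PI3K, 700.0 with Hdac3 RNAi and 852 in control. GstE10 had 59.1 with both transgenes, 54.9 with PI3K, 52.8 with Hdac3 RNAi and 55.3 in control. For GstE1 the highest array was control, and for GstE10 it was the one with both transgenes. The annotated spans of these 2 genes overlap.

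The epsilon genes outside the row stayed under 1.5-fold between any pair of arrays. GstE12 had 3139 with both transgenes, 3462 with PI3K, 3289 with Hdac3 RNAi and 3336 in control, and was lowest with both transgenes. GstE11 had 2289 with both transgenes, 2726 with PI3K, 2195 with Hdac3 RNAi and 2392 in control. GstE13 had 1893 with both transgenes, 2135 with PI3K, 1871 with Hdac3 RNAi and 2082 in control. For GstE11 and GstE13 the PI3K array was again the highest and Hdac3 RNAi the lowest. Over the 10 measured genes of class E, 8 were highest with PI3K and 7 were lowest with Hdac3 RNAi.

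The delta genes lie together on 3R in the order GstD10, GstD9, GstD1, GstD2 to GstD8 and GstD11, and 6 of the 11 were measured on all arrays. GstD1, an enzyme able to break down DDT and a common reporter of oxidative stress, had 11953 with both transgenes, 13033 with PI3K, 11620 with Hdac3 RNAi and 11960 in control. Its log2 ratios ran from -0.12 to 0.12 over the 5 comparisons, within the probe-set SD of each. GstD8 had 35.5 with both transgenes, 43.1 with PI3K, 37.5 with Hdac3 RNAi and 39.5 in control, close to the floor throughout.

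GstD2 and GstD3, which are neighbours, were lower with Hdac3 RNAi in both backgrounds. GstD2 had 48.4 with both transgenes, 72.9 with PI3K, 44.4 with Hdac3 RNAi and 65.3 in control. GstD3 had 1895 with both transgenes, 2501 with PI3K, 1829 with Hdac3 RNAi and 2413 in control. For each gene the 2 arrays with Hdac3 RNAi lay below the 2 without it. The log2 ratio of GstD2 was -0.59 for both transgenes against PI3K and -0.56 for Hdac3 RNAi against control, and that of GstD3 was -0.40 in each. The first of these passed 1.5-fold (0.58 on the log2 scale) narrowly, and was short of it with the deposited scale (-0.57). The delta genes are close in sequence, and whether these probe sets also bind other members was not tested.

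GstD9 ran the other way. It had 963 with both transgenes, 834 with PI3K, 954 with Hdac3 RNAi and 626 in control, so control was below all 3 transgene genotypes. The log2 ratios against control were 0.62 with both transgenes, 0.41 with PI3K and 0.61 with Hdac3 RNAi. GstD10, whose values are given above, had a departure from additivity of -0.73. Each transgene alone came with a higher value than control, and the pair with a slightly lower one.

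The omega genes, whose enzymes reduce oxidised vitamin C and other oxidised thiol partners, were nearly flat. GstO3 had 4833 with both transgenes, 5083 with PI3K, 4717 with Hdac3 RNAi and 4944 in control. GstO2 had 2536 with both transgenes, 2699 with PI3K, 2498 with Hdac3 RNAi and 2511 in control. GstO1 had 535 with both transgenes, 581 with PI3K, 491 with Hdac3 RNAi and 485 in control. All 3 were highest with PI3K, but the second probe set of GstO2 pointed the other way, with 735 in PI3K against 834 in control. The sigma gene GstS1, known for a high level in flight muscle, had 7251 with both transgenes, 6768 with PI3K, 7348 with Hdac3 RNAi and 6121 in control. Control was the lowest array for GstS1, and its largest log2 ratio was 0.26, for Hdac3 RNAi against control.

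Theta genes made up all the GST genes at least 1.5-fold lower than control in any of the 3 transgene genotypes. GstT3 had 374 with both transgenes, 434 with PI3K, 469.8 with Hdac3 RNAi and 717 in control, so control stood above all 3 other genotypes. The log2 ratios against control were -0.94 with both transgenes, -0.73 with PI3K and -0.61 with Hdac3 RNAi. GstT1 had 1985 with both transgenes, 2293 with PI3K, 1557 with Hdac3 RNAi and 2403 in control, and was lowest with Hdac3 RNAi alone, by -0.63 against control. Its neighbour GstT2 was flat, with 396 with both transgenes, 418 with PI3K, 403 with Hdac3 RNAi and 392 in control. GstT4 had 413 with both transgenes, 377 with PI3K, 366 with Hdac3 RNAi and 479.8 in control, again with control on top.

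The zeta genes encode an enzyme type that acts in tyrosine breakdown. GstZ1 had 422 with both transgenes, 487 with PI3K, 373 with Hdac3 RNAi and 444 in control. GstZ2 had 35.5 with both transgenes, 34.8 with PI3K, 29.4 with Hdac3 RNAi and 35.3 in control. Hdac3 RNAi alone was the lowest array for both, by -0.25 and -0.27 against control, and with both transgenes the values were within 0.07 of control on the log2 scale.

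**Figure D3:**
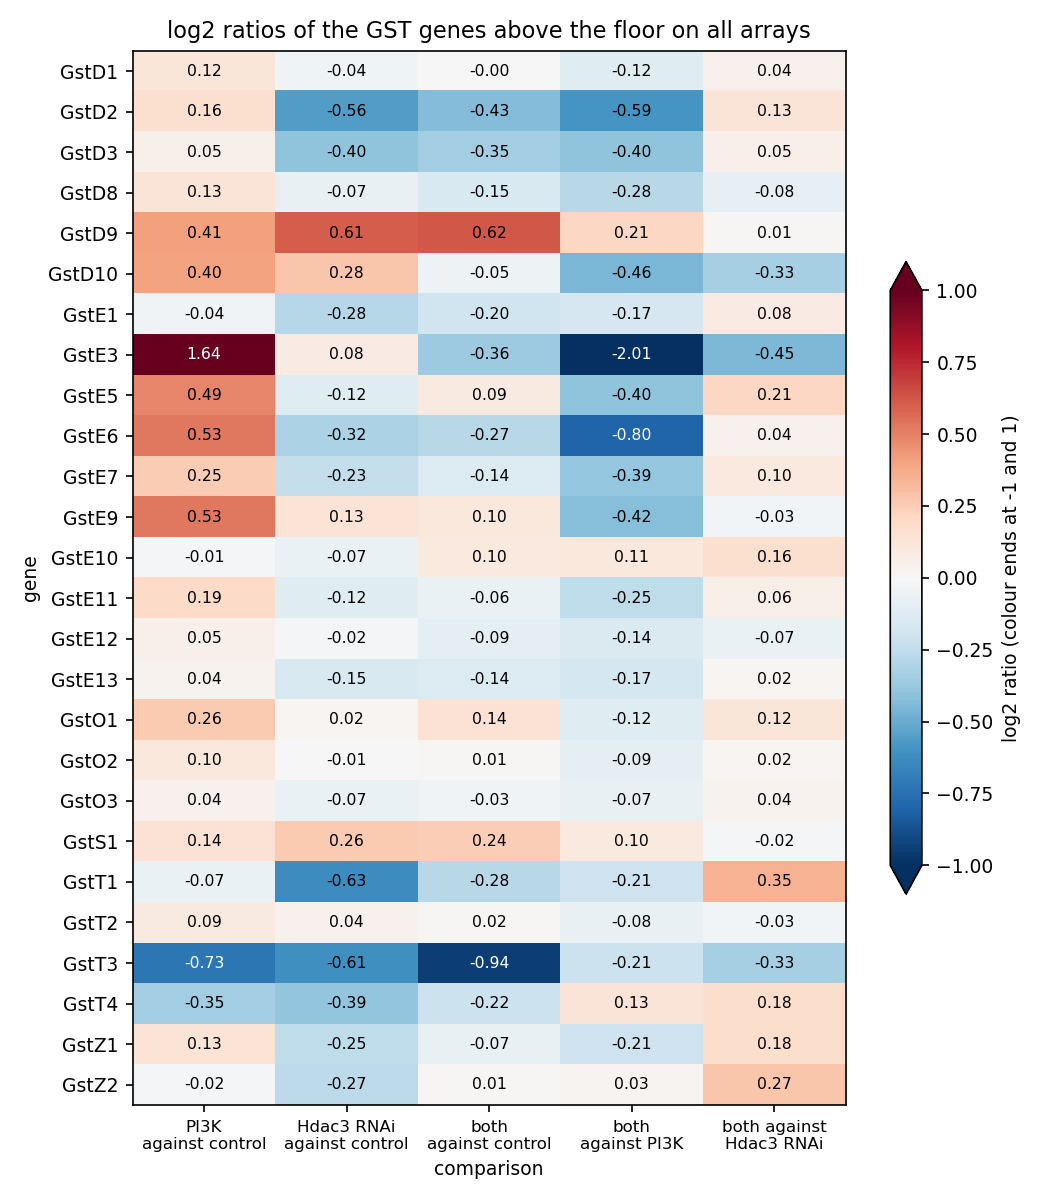
Log2 ratios of the 26 GST genes measured on all arrays (rows) in the 5 comparisons (columns); "both" is PI3K plus Hdac3 RNAi, red is higher and blue lower in the first-named genotype, and the colour ends at -1 and 1. GstE3 stands out against control with PI3K (1.64) and with both transgenes against PI3K (-2.01), and GstT3 is below control in all 3 genotypes.

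PI3K overexpression came with slightly higher values across much of the family. GstE3 was the 1 gene of 26 at least 1.5-fold higher than control, and also the 1 at least 2-fold higher, where 1.78% and 0.847% of the 7436 genes measured on both arrays passed those folds. GstT3 was the 1 gene at least 1.5-fold lower, where 3.12% of all genes were, and none was 2-fold lower, where 0.39% were. Of the 26 genes 20 had a positive ratio, with a median log2 ratio of 0.13. Over all genes 54.4% were positive, with a median of 0.02. By class the median was 0.14 for D, 0.22 for E, 0.10 for O and -0.21 for T.

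Gene span moves with this comparison. Of the 26 GST genes 20 belong to the 1851 measured genes with the shortest spans, up to 1501 bases. Those short genes had a median log2 ratio of 0.11 for PI3K against control, and the 1852 genes with the longest spans had -0.16. The GST median of 0.13 lay close to the median of the short genes. For Hdac3 RNAi against control the short genes had -0.01 and the GST genes -0.10. For both transgenes against control these medians were 0.04 and -0.07, and for both transgenes against PI3K -0.06 and -0.19. For both transgenes against Hdac3 RNAi they were 0.05 and 0.04. The part of gene span was not tested further.

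The PI3K effect could also be read on the other 2 arrays, with both transgenes against Hdac3 RNAi alone. There none of the 26 GST genes was 1.5-fold apart, where 0.604% of the 7456 genes were higher and 0.925% lower, or 2-fold apart, where 0.134% were higher and 0.376% lower. The median of the GST genes was 0.04 and that of all genes 0.02. GstT1 had the highest ratio at 0.35 and GstE3 the lowest at -0.45. Both PI3K effects were positive for 13 of the 26 genes, against 38.9% of all 7301 genes, and none passed 1.5-fold the same way in both. Of GstE3, GstE5, GstE6, GstE9, GstD9 and GstD10, the 6 genes with the highest ratios for PI3K against control, GstE5 alone had a ratio past the probe-set SD of 0.15 in the same direction here, at 0.21.

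**Figure D4:**
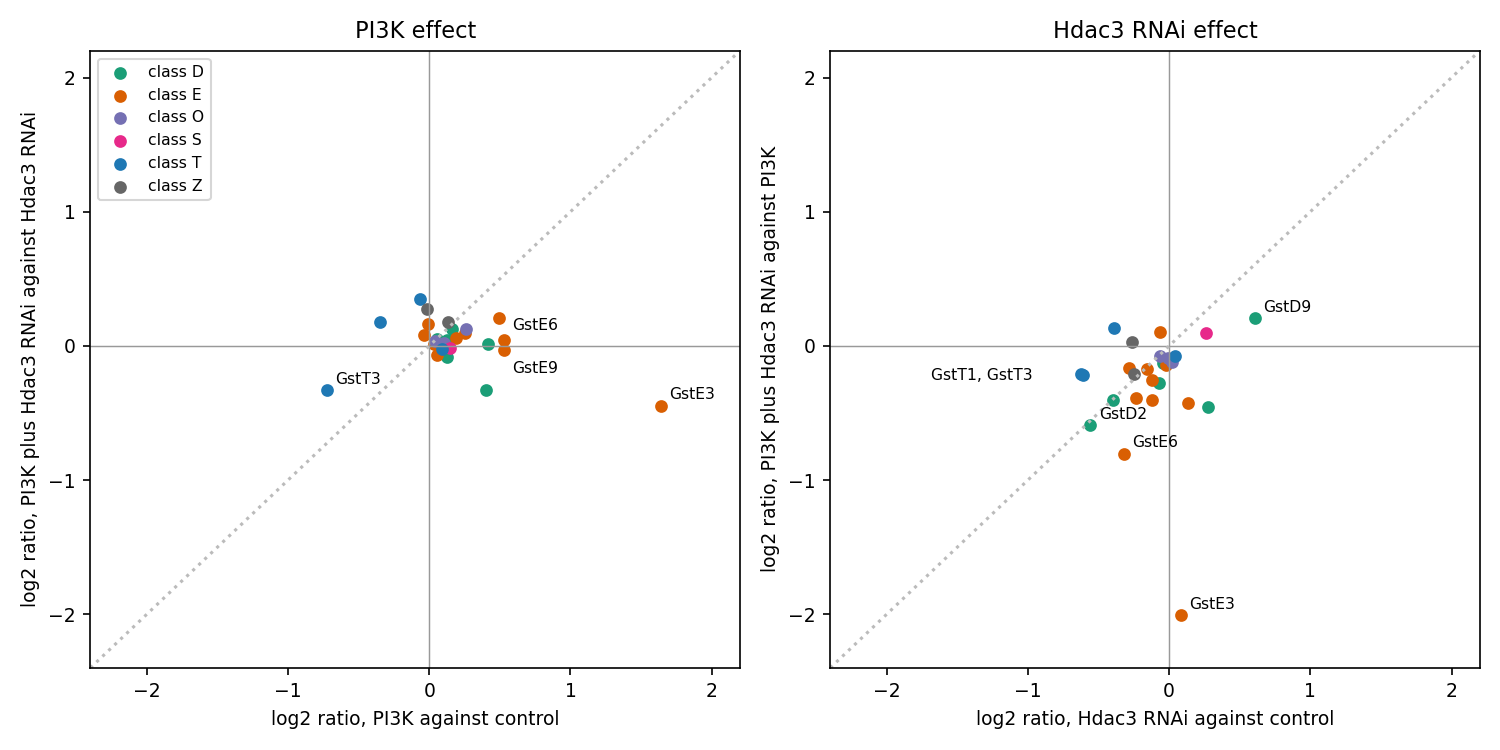
Each of the 26 measured GST genes by 2 log2 ratios that share no array: the PI3K effect without (x axis) and with (y axis) Hdac3 RNAi on the left, and the Hdac3 RNAi effect without (x axis) and with (y axis) PI3K on the right; colours give the class and the dotted line marks equal effects. GstE3 lies far from the line in both panels, and GstD2 lies near it on the right at -0.56 and -0.59.

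Hdac3 RNAi alone came with slightly lower values across much of the family. GstT1 and GstT3 were the 2 genes of 26 at least 1.5-fold lower than control, where 1.43% of the 7407 genes were, and GstD9 was the 1 higher, where 0.972% were. None was 2-fold apart, where 0.27% of all genes were higher and 0.284% lower. Of the 26 genes 19 had a negative ratio, with a median of -0.10, against 57.4% negative and a median of -0.03 over all genes. The 2 lower calls stood near the threshold. With the arrays scaled to a common median GstT1 had -0.56 and GstT3 -0.545, so that 0 genes were called lower and 1 higher, and the split was 10 positive to 16 negative.

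With Hdac3 RNAi added to PI3K overexpression, values were lower than with PI3K alone across most of the family. GstE3, GstE6 (-0.80) and GstD2 (-0.59) were the 3 genes of 26 at least 1.5-fold lower, where 1.97% of the 7475 genes were, and none was higher, where 3% were. GstE3 was the 1 gene at least 2-fold lower, where 0.843% were, and none was 2-fold higher, where 0.388% were. Of the 26 genes 21 had a negative ratio, with a median of -0.19, against 56.3% negative and a median of -0.03 over all genes. The genes with the shortest spans had a median of -0.06 in this comparison. It shares the PI3K array with the comparison of PI3K with control, so the opposite medians of the 2 are not independent.

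Both readings of the Hdac3 RNAi effect, which share no array, were negative for 16 of 26 GST genes, or 61.5%, against 41.2% of all 7301 genes. None passed 1.5-fold the same way in both. By array, Hdac3 RNAi alone was the lowest for 16 of the 26 GST genes and for 35.6% of all genes. PI3K was the highest array for 18 of the 26, against 40.9% of all genes, and the lowest for none, against 29.4%.

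With both transgenes against control, GstD9 was the 1 gene of 26 at least 1.5-fold higher, where 0.879% of the 7397 genes were, and GstT3 the 1 lower, where 1.51% were. None was 2-fold apart, where 0.203% were higher and 0.5% lower. The GST median was -0.07 and that of all genes -0.02, with 9 positive to 17 negative, and 54.8% of all genes were negative. On the deposited scale that split was 6 to 20. GstD9 and GstT3 held their direction against control in all 3 transgene genotypes, 3 ratios that share the control array. This was not particular to them. With both transgenes, PI3K and Hdac3 RNAi in turn, GstS1 had 0.24, 0.14 and 0.26, and GstT4 had -0.22, -0.35 and -0.39. GstE9, GstO1 and GstT2 were also above control in all 3 genotypes, and GstE1 and GstT1 below it. The share of all genes that kept their direction was not counted.

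The departure from additivity was negative for 19 of the 26 genes, with a median of -0.10, against 47.3% negative and a median of 0.01 over all genes. On the deposited scale the split was 11 positive to 15 negative. GstE3 (-2.09) and GstD10 (-0.73) were the 2 genes past 1.5-fold in the negative direction, where 2.01% of the 7301 genes were. None was past it in the positive direction, where 2.25% were. GstE3 alone was past 2-fold in the negative direction, where 0.945% were, and none in the positive, where 0.301% were. The highest values were those of 3 theta genes, with 0.52 for GstT4, 0.42 for GstT1 and 0.40 for GstT3. The class medians were -0.15 for D, -0.14 for E and 0.41 for T. A high PI3K value lowers the departure and a high control value raises it. It is therefore not independent of the array orders above, where 18 of the 26 genes were highest with PI3K. GstT1, GstT3 and GstT4 were highest in control.

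**Figure D5:**
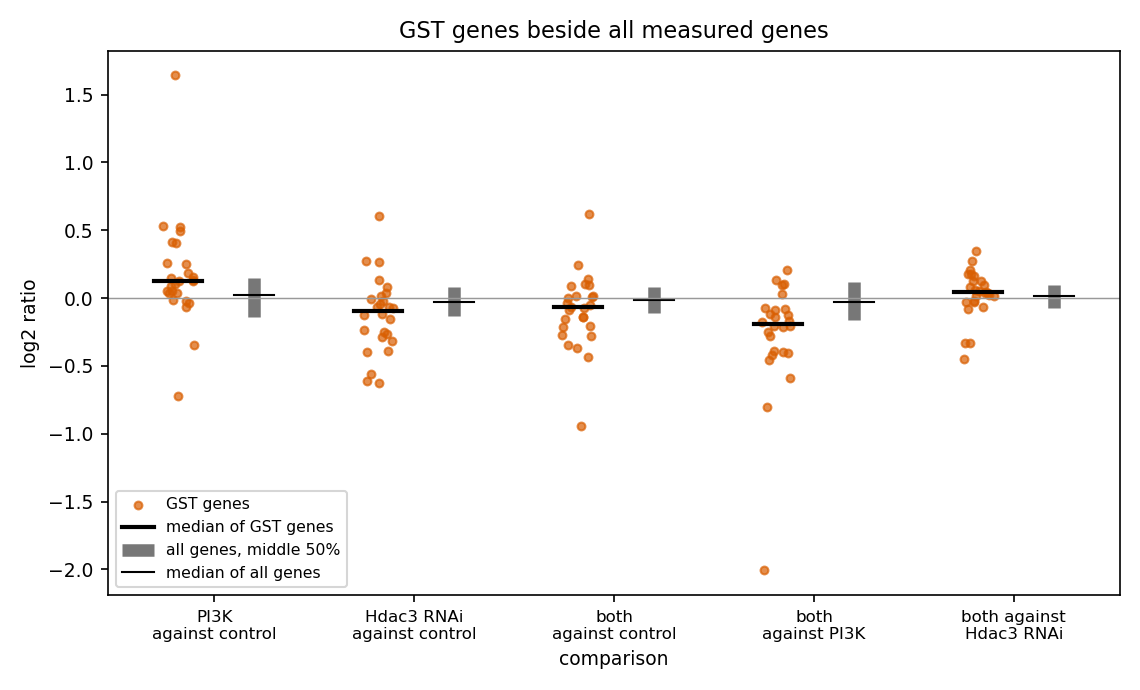
Log2 ratios of the 26 measured GST genes (points, thick line at their median) beside all measured genes (grey bar for the middle 50%, thin line at the median) in the 5 comparisons. The GST median is above that of all genes for PI3K against control (0.13 against 0.02) and below it for both transgenes against PI3K (-0.19 against -0.03).

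Other genes with a GST fold or transferase activity but another name were flat, with 0 of 5 measured genes 1.5-fold apart in any of the 5 comparisons. For this list and the lists below, the shares of all genes past 1.5-fold are those given above for each comparison. The omega enzyme gene sepia (se), which acts in eye pigment synthesis, had 35.0 with both transgenes, 35.5 with PI3K, 41.0 with Hdac3 RNAi and 36.0 in control. The microsomal enzyme gene Mgstl had 2110.2 with both transgenes, 2142 with PI3K, 1982 with Hdac3 RNAi and 2075 in control. For gfzf, Clic and the elongation factor subunit gene eEF1gamma, log2 ratios stayed between -0.11 and 0.23.

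Genes of glutathione supply showed small differences, with 0 of 5 genes 1.5-fold apart in any comparison. The list's median was 0.13 for PI3K against control, with 5 of 5 positive, and -0.09 for both transgenes against PI3K, with 5 of 5 negative. For Hdac3 RNAi against control it was -0.20, with 4 of 5 negative. Over all genes the medians of these comparisons were 0.02, -0.03 and -0.03 in turn. Gclc, the catalytic subunit of the enzyme for the first step of glutathione synthesis, had 262 with both transgenes, 279 with PI3K, 234 with Hdac3 RNAi and 260.2 in control. Its modifier subunit gene Gclm had 116.4 with both transgenes, 147 with PI3K, 116.3 with Hdac3 RNAi and 135 in control. For Cbs and Cth, which make cysteine, and Ggt-1, which breaks glutathione down, the ratios for PI3K against control were 0.19, 0.20 and 0.13.

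The regulators of the CncC pathway gave no 1.5-fold difference in any comparison, with 4 of 4 genes measured. The gene cnc had 861 with both transgenes, 584 with PI3K, 921 with Hdac3 RNAi and 798 in control, so it was lowest with PI3K. Its log2 ratio for PI3K against control was -0.45. Of the 8 wing disc markers 7 were also lower in that comparison, with a list median of -0.30. Over all genes 45.6% were lower, with a median of 0.02. Activity of the CncC protein was not measured. Keap1 had 181 with both transgenes, 204 with PI3K, 187 with Hdac3 RNAi and 221 in control. For maf-S, the partner of CncC, and ref(2)P, an autophagy adaptor, log2 ratios stayed between -0.08 and 0.09.

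In the thioredoxin, peroxide and superoxide list, 9 genes of the 16 listed were measured on both arrays of each comparison. Sod3, the extracellular superoxide dismutase gene, had 3814 with both transgenes, 4062 with PI3K, 2524 with Hdac3 RNAi and 1647 in control. All 3 transgene genotypes lay above control, by log2 ratios of 1.21, 1.30 and 0.62. The other 8 genes, among them Trxr1, which keeps glutathione reduced in flies, stayed within 1.5-fold in all comparisons. The list's median was 0.16 for PI3K against control, -0.02 for Hdac3 RNAi against control and -0.10 for both transgenes against PI3K. Over all genes those medians were 0.02, -0.03 and -0.03. The peroxiredoxin gene Prx6c had 120 with Hdac3 RNAi and was at or below 28.1 on the other arrays, at least 2.15 log2 higher with Hdac3 RNAi than in control.

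Among cytochrome P450 genes, the oxidases that often act before GSTs, 30 of 81 were above the floor on an array. With PI3K against control 2 of 23 measured on both arrays were at least 1.5-fold higher and none lower. Over all genes 1.78% were higher and 3.12% lower. The P450 median was 0.18, against 0.02 over all genes. The symbol pattern for this list also matched the cyclophilin genes Cyp1 and Cyp40, which were left out after the values were seen, and with them the median was 0.06. With both transgenes against PI3K 4 of 25 were at least 1.5-fold lower and none higher. Over all genes 1.97% were lower and 3% higher. The P450 median was -0.12, against -0.03 over all genes. Cyp4d1 had 38.6 with both transgenes, 99.3 with PI3K, 49.5 with Hdac3 RNAi and 42.5 in control, the same order of arrays as GstE3. Cyp6g1, a gene of DDT resistance, was below the floor with both transgenes and had 69.8 with PI3K, 35.5 with Hdac3 RNAi and 29.7 in control, also in that order. Cyp18a1, which inactivates the moulting hormone ecdysone, had 224 with both transgenes, 480.05 with PI3K, 265 with Hdac3 RNAi and 533 in control, so it was lower where Hdac3 RNAi was present.

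Cyp4p2 was high wherever the PI3K transgene was present. It had 859 with both transgenes, 806 with PI3K and 27.2 with Hdac3 RNAi, and was below the floor in control. Cyp4p1 had 108 with both transgenes and 122 with PI3K, and was below the floor with Hdac3 RNAi and in control. These are step differences between the arrays with and without the PI3K transgene, at least 4.90 and 2.19 log2 for PI3K against control. The UDP-glycosyltransferases, another conjugating family, had 10 of 35 genes above the floor. Where both arrays measured a gene none was at least 1.5-fold apart, except Ugt35A1, lower with both transgenes than in control (-0.75). Ugt35A1 was also just below the floor with Hdac3 RNAi, at least 0.98 log2 lower than in control. The median of the UDP-glycosyltransferases was 0.22 for PI3K against control, -0.04 for Hdac3 RNAi against control and -0.22 for both transgenes against PI3K. Over all genes those medians were 0.02, -0.03 and -0.03. Epoxide hydrolase and efflux pump genes had 3 of 5 measured and 0 past 1.5-fold, with Jheh2 at 3031 with both transgenes, 3504 with PI3K, 2914 with Hdac3 RNAi and 3276 in control. For the pump genes MRP and Mdr49 the log2 ratios stayed between -0.19 and 0.07, and Mdr50 and Mdr65 were below the floor on every array.

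Markers of 3 further tissues moved by less than those of the fat body. Hemocyte markers, 5 of 5 on the array, summed to 521 with both transgenes, 556 with PI3K, 837 with Hdac3 RNAi and 704 in control, with NimC1 the furthest apart at -1.03 for both transgenes against control. Tracheal markers, 4 of 4, summed to 10788 with both transgenes, 8647 with PI3K, 10337 with Hdac3 RNAi and 8085 in control, with serp the furthest apart at 0.66 for both transgenes against PI3K. Malpighian tubule markers, 4 of 5, summed to 184 with both transgenes, 170.4 with PI3K, 190.1 with Hdac3 RNAi and 202 in control, and 2 of the 4, Irk2 and Drip, were above the floor. None of these 3 sums was highest with PI3K. Their part in the GST values was not tested.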

How the data were processed

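Biotin-labelled cRNA from wing discs was hybridised to Affymetrix arrays, with 1 array per genotype. The deposited values are intensity on a linear scale for 18952 probe sets. The authors made them with MAS5, per the submitters' processing notes, with settings not stated there. Precision is limited by the number of arrays, since no value has a replicate.

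The annotation of 2016 gave 1 symbol to 13647 probe sets, several to 402 and none to 4720, beside 183 controls. Genes took their brightest single-symbol probe set. All 34 GST symbols matched RefSeq Release 6, used for names, gene order and gene spans. Each array was scaled to a common 2% trimmed mean, values under the floor were raised to it, and log2 ratios were taken. A gene counted where both arrays reached the floor. Ratios against the floor are written "at least".

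Comparisons were counts past 1.5-fold and 2-fold, medians and the departure from additivity, each beside all genes, with Python 3.11.15 and pandas 2.3.3. Counting was tested on simulated data. Alternatives changed the scaling, the floor, the probe set and its type. All GST genes are named; of other lists, small lists in full and otherwise genes past 2-fold (at most 5), and the tissue markers with the largest ratios. Members and lists were chosen with earlier results of these data known.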

Additional observations from a re-analysis of the deposited data

Results flagged for a closer look

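GstE3 was singled out because its effects had opposite signs in the 2 backgrounds and the larger one reached 1.5-fold. Opposite signs alone were also seen elsewhere, as for GstD10, with PI3K effects of -0.33 with Hdac3 RNAi and 0.40 without it. The PI3K effect of GstE3 was -0.45 log2 with Hdac3 RNAi and 1.64 without it. Its Hdac3 RNAi effect was -2.01 with PI3K and 0.081 without it. The value of 0.081 lay within the probe-set SD of 0.18 for Hdac3 RNAi against control. That SD does not measure the spread between repeated arrays, and with 1 array per genotype the sign of 0.081 is not resolved. The other GstE3 values have no replicate spread either. These are the same 4 arrays read by row and by column, and the difference of -2.09 was not tested.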

How the results depend on the processing

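No paired analysis was possible because each genotype has 1 array, and for the same reason no replicate could be left out. Over 8 other ways of scaling, flooring or choosing probe sets, the medians of the GST genes kept their sign in all 5 comparisons and in the departure from additivity, but moved in size. They ran from 0.06 to 0.15 for PI3K against control, from -0.12 to -0.03 for Hdac3 RNAi against control, from -0.08 to -0.02 for both transgenes against control, from -0.21 to -0.13 for both transgenes against PI3K, from 0.02 to 0.04 for both transgenes against Hdac3 RNAi, and from -0.15 to -0.03 for the departure. Counts stayed within 1.5 times the reported ones with 2 exceptions. With the arrays scaled to a common median, 0 genes were at least 1.5-fold lower with Hdac3 RNAi than in control, against 2, because GstT1 and GstT3 moved just under the threshold. With no floor and log2(value + 16), 1 gene had a departure from additivity of at least 1.5-fold in the negative direction, against 2, because adding 16 shrinks the ratios of dim genes such as GstD10. GstE3 kept its direction throughout, from 1.52 to 1.70 for PI3K against control. The number of GST genes highest with PI3K ran from 17 to 21, and that of genes lowest with Hdac3 RNAi from 13 to 20. Genes near the floor of 26.9, such as GstZ2, GstD8 and GstE9, are limited by their signal over background. GstE9 had a log2 ratio of 0.53 for PI3K against control, and 0.26 as a mean over both probe sets. That smaller value is set by the floor. The second probe set lay below the floor on all arrays and was raised to it, so its ratio was 0.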
